A study of Mus musculus with 22 samples.

Results

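The extracellular matrix, integrin and matrix-remodelling genes outside the type IV collagens were examined in the ac4C peak table of kidneys from db/db and db/m mice. Members were the peaks whose gene symbol belongs to the collagens other than Col4a, the laminins, nidogens, perlecan and agrin, the integrins, the fibrillins, fibulins, latent TGF-beta binding proteins and lysyl oxidases, fibronectin and a set of matricellular proteins and small proteoglycans, the Mmp, Adam and Adamts proteases, the Timp inhibitors, or the serpins. This gave 111 peaks in 53 genes, of 9857 peaks in 4909 genes. Of the 111 peaks, 49 came from the list called in db/db mice and 62 from the list called in db/m mice. Peaks of both lists that overlapped were merged into 82 regions, so the peaks of 1 gene are not independent. The symbols chose the members and no measured value entered the rule, but the list was chosen with earlier results of these data known.

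The db/db mice carry the db mutation of the leptin receptor on both alleles and develop obesity with diabetes, whereas db/m mice carry it on 1 allele and served as nondiabetic controls. Male animals were used according to the methods, and the age at which these kidneys were taken is not given in the sources used here. RNA from whole kidneys, of 6 db/db and of 5 db/m animals, was sequenced, and each of the 11 animals had an IP library and an RNA-seq library. In the IP library, fragmented mRNA had been pulled down with an antibody against N4-acetylcytidine (ac4C), a modified cytidine that NAT10 places on RNA, and the RNA-seq library shows the abundance of the same transcripts. No other treatment separated the groups, and db/m is the only control.

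The extracellular matrix holds tubules, vessels and glomeruli in place. Collagens and laminins form its fibrils and sheets, integrins anchor cells to it, metalloproteinases cut it, and Timp proteins and serpins restrain the cutting enzymes. In diabetic kidney disease the basement membranes thicken and matrix accumulates in the mesangium and between tubules, which is why the balance of synthesis and breakdown has been studied there for long.

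Reads counted in all peaks ranged from 7577171 to 10293757 in the IP libraries and from 3151035 to 3352535 in the RNA-seq libraries. Levels are given as CPM, the usual counts-per-million scale, here taken over all reads in peaks with TMM-scaled library sizes. At least 10 RNA-seq reads per library, on average, were found in 56 of the 111 peaks, in 20 of the 53 genes, against 6724 of all 9857 peaks. The other 55 member peaks held fewer. The median was 14.1 RNA-seq reads per library over the member peaks and 60.4 over all peaks. Peaks longer than 1000 bases made up 44.1% of the member peaks and 30.1% of all peaks.

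For most matrix genes no difference between the genotypes passed the test, and the differences past both thresholds were held by few of them. In db/db mice Col27a1, Col13a1 and Serpine2 were higher in both kinds of library, and Col8a1 in RNA-seq reads. Serpinf2 was lower in both, Timp3 and Col14a1 in RNA-seq and Col5a1 in IP reads. A peak was called when edgeR's quasi-likelihood test gave a Benjamini-Hochberg adjusted p under 0.05 over all 9857 peaks and the absolute log2 fold change, db/db over db/m, was over 1. The Ensembl identifiers of these genes are ENSMUSG00000045672 (Col27a1), ENSMUSG00000058806 (Col13a1), ENSMUSG00000068196 (Col8a1), ENSMUSG00000022371 (Col14a1), ENSMUSG00000026837 (Col5a1), ENSMUSG00000020044 (Timp3), ENSMUSG00000026249 (Serpine2) and ENSMUSG00000038224 (Serpinf2).

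In IP reads, 13 member peaks in 4 genes were called higher (11.7% of members, against 1.59% of all peaks) and 2 peaks in 2 genes were called lower (1.8%, against 1.72%). In RNA-seq reads, 13 peaks in 4 genes were called higher (11.7%, against 1.98%) and 4 peaks in 3 genes lower (3.6%, against 1.97%). Col27a1 alone gave 9 of the rises in IP and 10 of those in RNA-seq reads. Among the 101 other member peaks, 4 (3.96%) were called higher in IP and 3 (2.97%) in RNA-seq reads. By gene, a called peak was found in IP reads for 6 of 53 genes (11.3%, against 3.91% of all genes) and in RNA-seq reads for 7 (13.2%, against 4.66%). The count was 3 genes in IP reads without db/db animal 3, db/db animal 5 or db/m animal 4, and 11 genes in RNA-seq reads without db/db animal 6. The share of all genes called in these reduced fits is not given here, so a shift particular to the members cannot be read from them. Genotypes without overlap were seen in 11 member peaks that were higher in IP reads (9.91%, against 2.78% of all peaks) and 2 that were lower (1.8%, against 2.99%). For RNA-seq reads these numbers were 7 higher (6.31%, against 3.55%) and 7 lower (6.31%, against 4.34%). Overlapping peaks of 1 gene count separately in these shares, and no count by gene is given for them. The collagens held 4 of the 11 peaks higher in IP reads, and the Timp inhibitors 5 of the 7 lower in RNA-seq reads. The median log2 fold change of the 111 peaks was 0.32 in IP and 0.25 in RNA-seq reads, where that of all peaks was 0.00 and -0.01. Without db/db animal 3 the IP median of the members was 0.09. With 1 peak for each of the 53 genes, the one with the most reads, the medians were 0.29 and 0.22.

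**Figure D1:**
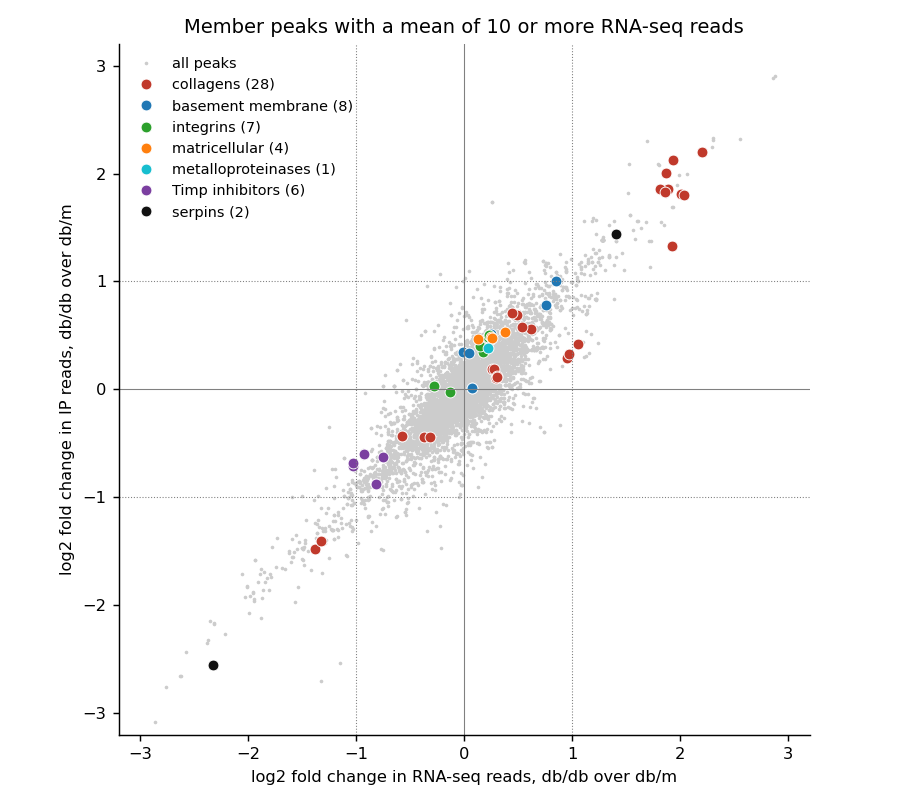
Each dot is a peak with 10 or more RNA-seq reads per library on average, placed by its log2 fold change (db/db over db/m) in RNA-seq reads on the x axis and in IP reads on the y axis, with the 56 member peaks coloured by role, all peaks in grey and dotted lines at a log2 fold change of 1. A few peaks of other genes lie outside the axes. The Col27a1 peaks stand at the upper right between 1.32 and 2.20 in IP reads, and Serpinf2 at the lower left.

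Collagens formed the largest group, with 55 peaks in 20 genes. In IP reads, 10 of these peaks in 2 genes were called higher (18.2%, against 1.59% of all peaks) and 1 was called lower (1.82%, against 1.72%). In RNA-seq reads, 12 peaks in 3 genes were called higher (21.8%, against 1.98%) and 1 lower (1.82%, against 1.97%). Col27a1 held 9 of the 10 and 10 of the 12, and of the 45 peaks of other collagens 1 (2.22%) was higher in IP and 2 (4.44%) in RNA-seq reads. The median log2 fold change of all 55 collagen peaks, those of Col27a1 included, was 0.34 in IP and 0.44 in RNA-seq reads.

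Col27a1 encodes a fibrillar collagen best known from cartilage. It had 10 peaks in 5 regions along chromosome 4 of GRCm38, from 63273078 to 63333792 on the plus strand. The peak with the most reads (63315568 to 63324448, 8881 bases) had RNA-seq levels of 65.1, 123, 198, 84.3, 199 and 34.0 CPM in db/db animals 1 to 6 and of 32.4, 35.0, 28.5, 29.0 and 41.2 CPM in db/m animals 1 to 5. Animals 1 to 5 of the db/db mice were above all db/m mice, and db/db animal 6 lay within the db/m range. The means were 117 ± 69.2 (SD, n = 6) and 33.2 ± 5.18 CPM (SD, n = 5), which is 1.82 on the log2 scale (standard error [SE] 0.34, adjusted p = 0.00132, edgeR).

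The IP levels of the same Col27a1 peak were 207, 433, 668, 300.0, 683 and 119 CPM in db/db mice and 84.6, 131, 106, 82.9 and 150.0 CPM in db/m mice. They had the same order at the ends as the RNA-seq levels, with db/db animals 3 and 5 highest and animal 6 lowest of its genotype. Between the genotypes the log2 fold change came to 1.86 (SE 0.36, adjusted p = 0.00271). Exact two-sided permutation tests over the 462 splits of the animals gave p = 0.0238 for RNA-seq and p = 0.0130 for IP reads. Without db/db animal 6 the log2 fold change was 2.01 in RNA-seq and 2.08 in IP reads, and over 15 alternative fits it stayed between 1.59 and 2.01 and between 1.65 and 2.08.

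The difference ran the same way at each peak of the transcript. Over the 10 peaks the log2 fold change ran from 1.82 to 2.20 in RNA-seq reads and from 1.32 to 2.20 in IP reads, and the single peak not called in IP reads was the most upstream one, which had the fewest reads (adjusted p = 0.101). The most downstream peak, from 63333583 to 63333792, is short (210 bases), and there the genotypes did not overlap. Its RNA-seq levels were 58.2 to 405 CPM in db/db mice and 32.1 to 52.0 CPM in db/m mice, giving a log2 fold change of 2.20 (SE 0.34, adjusted p = 0.000226). The lncRNA gene Gm52743 covers this last region, so reads of the 2 genes cannot be told apart there.

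**Figure D2:**
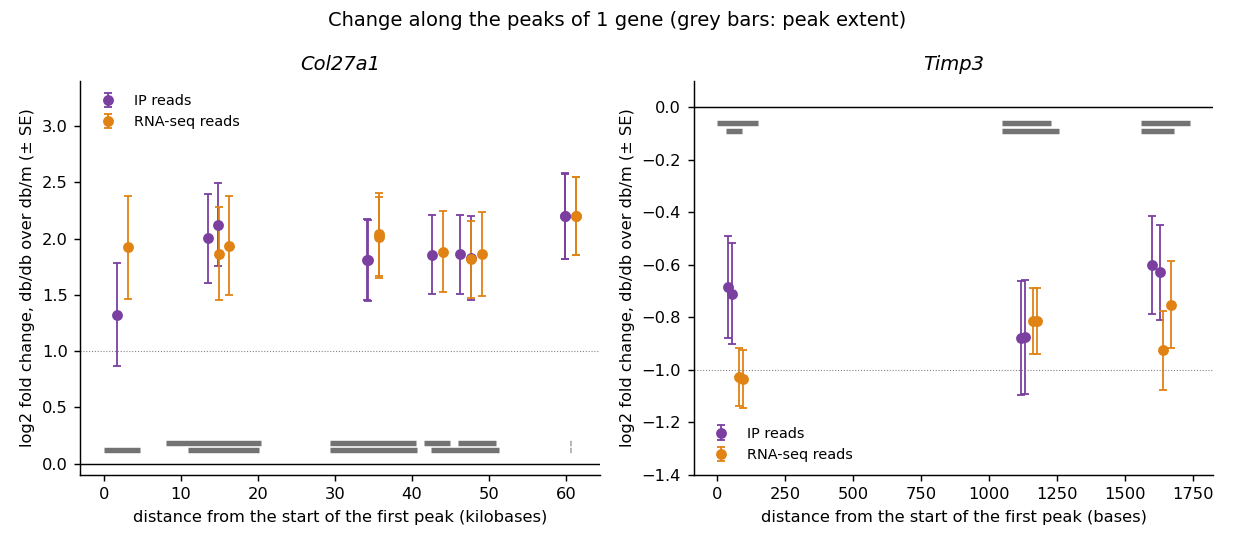
Log2 fold changes (db/db over db/m, with standard errors) in IP and RNA-seq reads are drawn at the midpoint of each peak of Col27a1 (left) and Timp3 (right), against the distance from the start of the first peak, RNA-seq points drawn slightly to the right, with the extent of the peaks as grey bars and a dotted line at the fold threshold. All 10 Col27a1 peaks lie above 1.3 and all 6 Timp3 peaks lie below -0.6.

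The promoters of 4 members are shown because they are the genes called in RNA-seq reads at a mean of over 50 reads per library. The 250 bases before the annotated RefSeq start (GRCm38.p6) are written 5′ to 3′ on the strand of the gene. Capitals mark matches on either strand to a GC box (GGGCGG). The letters TATAAA were searched on both strands as the TATA box. An AP-1 site was taken as TGANTCA, where N is any base. The CCAAT box was searched by the letters of its name. None of these 3 had a match in the 4 windows.
Col27a1, chr4:63215162-63215411, plus strand: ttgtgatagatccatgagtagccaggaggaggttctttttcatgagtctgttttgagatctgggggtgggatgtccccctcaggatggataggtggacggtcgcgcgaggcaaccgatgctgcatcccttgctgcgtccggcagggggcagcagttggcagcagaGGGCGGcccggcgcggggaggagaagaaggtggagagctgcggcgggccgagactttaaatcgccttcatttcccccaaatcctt
Serpine2, chr1:79858666-79858915, minus strand: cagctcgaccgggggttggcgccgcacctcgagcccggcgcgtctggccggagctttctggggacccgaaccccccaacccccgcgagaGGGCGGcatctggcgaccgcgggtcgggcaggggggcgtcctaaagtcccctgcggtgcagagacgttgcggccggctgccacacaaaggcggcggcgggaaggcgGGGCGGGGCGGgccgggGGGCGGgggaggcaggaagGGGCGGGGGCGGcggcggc
Serpinf2, chr11:75439502-75439751, minus strand: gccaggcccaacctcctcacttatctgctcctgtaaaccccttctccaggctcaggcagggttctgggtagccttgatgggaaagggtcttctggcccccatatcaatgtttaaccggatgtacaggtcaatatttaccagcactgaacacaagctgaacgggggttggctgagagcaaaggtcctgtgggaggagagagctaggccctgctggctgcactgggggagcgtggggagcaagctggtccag
Timp3, chr10:86300162-86300411, plus strand: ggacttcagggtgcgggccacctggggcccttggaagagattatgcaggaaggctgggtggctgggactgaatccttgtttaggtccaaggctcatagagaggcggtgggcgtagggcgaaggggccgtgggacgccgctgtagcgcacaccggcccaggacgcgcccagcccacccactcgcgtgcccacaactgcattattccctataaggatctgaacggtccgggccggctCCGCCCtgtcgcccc

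The GC box had 1 match in Col27a1, 6 in Serpine2, where neighbouring matches touch or share bases, 1 in Timp3, on the other strand, and 0 in Serpinf2. Over all 32851 promoters of the RefSeq table, 32.7% held a GC box, 12.4% a TATA box, 33.8% a CCAAT box and 6.75% an AP-1 site. Of the 53 member genes, 40 had an entry, with 45 promoters, and 27 of these (60.0%) held a GC box, 8 (17.8%) a CCAAT box, 3 (6.67%) a TATA box and 3 (6.67%) an AP-1 site. G and C made up 59.6% of the window of Col27a1, 78.8% of that of Serpine2, 57.2% of that of Serpinf2 and 65.6% of that of Timp3, against a median of 52.4% over all promoters. In RNA-seq reads, 2 of the genes with a GC box rose, 1 fell, and the gene without one fell. A match is a description of the letters and not a measured binding site.

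Col13a1, a collagen that spans the cell membrane, had a single peak of 13238 bases (chromosome 10, 61874018 to 61887255, minus strand). Its IP levels were 4.47, 10.7, 17.4, 10.1, 16.0 and 1.85 CPM in db/db mice and 2.34, 1.06, 0.549, 1.20 and 5.90 CPM in db/m mice. Animal 6 of the db/db mice was again the lowest, and 2 db/db animals were below the highest db/m animal. On the log2 scale the difference was 2.19 (SE 0.61, adjusted p = 0.0374), and 8 of 15 alternative fits gave an adjusted p of 0.05 or more. In RNA-seq it rested on 2 to 9 reads per db/db library and 0 or 1 per db/m library, without overlap (log2 fold change 3.05, SE 0.68, adjusted p = 0.00538). The lncRNA gene Gm40674 lies within this peak.

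Col8a1 encodes a short-chain collagen of vessel walls. It was called higher in RNA-seq reads from 0 to 13 reads per db/db library and 0 or 1 read per db/m library (log2 fold change 3.16, SE 0.99, adjusted p = 0.0452). Its IP reads were not called (adjusted p = 0.364), and db/m animal 2 had 32 IP reads there where the remaining db/m mice had 0 to 2. Left out, it gave an IP value of 4.54 (adjusted p = 0.0235). The RNA-seq call was lost in 8 of 15 alternative fits, with an adjusted p of 0.103 when db/db animal 3 was left out.

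Col14a1, which binds to the surface of collagen fibrils, fell in RNA-seq reads. Its peak (chromosome 15, 55307750 to 55307900) had RNA-seq levels of 1.51, 3.90, 3.43, 1.57, 3.48 and 4.25 CPM in db/db mice and 7.38, 10.4, 7.85, 7.02 and 6.97 CPM in db/m mice. No db/db animal reached the lowest db/m animal. The resulting log2 value was -1.38 (SE 0.27, adjusted p = 0.00212), the exact permutation test gave p = 0.00216, the smallest that 6 against 5 animals allow, and all 16 alternative fits kept the adjusted p under 0.05. In IP reads the value was -1.48 (SE 0.68, adjusted p = 0.222), with 0 to 60 reads in the db/db libraries and 43 to 108 in the db/m libraries.

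Col5a1, a fibrillar collagen that starts the assembly of type I fibrils, was called lower in IP reads on few reads. The db/db libraries held 3 IP reads in all and the db/m libraries 0, 54, 12, 8 and 16, so db/m animal 2 gave most of them. The log2 fold change of -4.78 (SE 1.34, adjusted p = 0.0388) became -3.82 with an adjusted p of 0.103 without this animal, and the adjusted p was 0.05 or more in 10 of 14 alternative fits. The RNA-seq libraries held 0 to 2 reads each.

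Of the other collagens, Col18a1, whose C-terminal fragment is endostatin, was the member with the deepest collagen peak (chromosome 10, 77065288 to 77074406, 618 RNA-seq reads per library). Its 5 peaks had log2 fold changes of 0.10 to 0.19 in IP and 0.25 to 0.31 in RNA-seq reads, and none passed (adjusted p 0.178 or more in both). Without db/db animal 1, which had the lowest value in both libraries, the RNA-seq change of the deepest peak was 0.39 (adjusted p = 0.0448). The chains of type VI collagen, a beaded-filament collagen of the interstitium, gave values on both sides of 0. Col6a1 had IP log2 fold changes of 0.42 to 0.71 over 4 peaks and Col6a3 had -0.44 to -0.43 over 4 peaks, with adjusted p of 0.256 or more. In RNA-seq reads Col6a1 had 0.44 to 1.06 (adjusted p 0.0503 or more) and Col6a3 -0.58 to -0.32 (0.228 or more). Col7a1, the anchoring fibril collagen, ranged from -0.02 to 1.02 in IP and from -0.29 to 1.95 in RNA-seq reads over 8 peaks. It had no call (adjusted p 0.417 or more in IP and 0.0585 or more in RNA-seq reads), on 0.182 to 14.3 RNA-seq reads per library. Col15a1, a basement membrane zone collagen, had values of -1.41 in IP reads (adjusted p = 0.139) and -1.33 in RNA-seq reads (adjusted p = 0.0601). The peaks of Col5a2, Col5a3, Col6a5, Col9a3, Col11a1, Col11a2, Col16a1, Col23a1 and Col24a1 had a mean under 10 RNA-seq reads each and were not called. Col6a2 had 18.6 RNA-seq reads per library and a log2 fold change of 0.54 in them (adjusted p = 0.392).

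**Figure D3:**
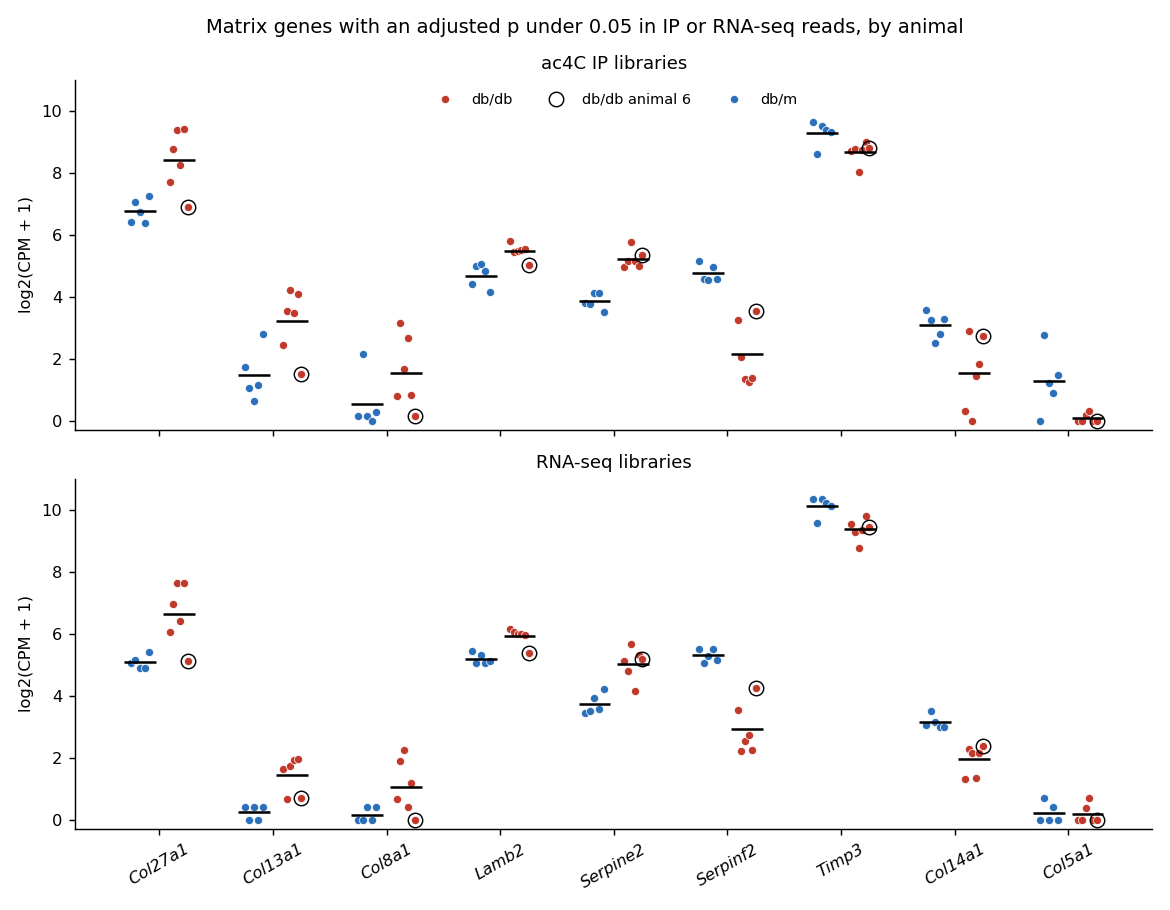
Each dot is 1 animal, on a scale of log2(CPM + 1), for the representative peak of 9 member genes with an adjusted p under 0.05 in either library type; blue is db/m (5 animals), red is db/db (6 animals), and the bar is the mean. The upper panel holds the IP and the lower the RNA-seq libraries, and the ringed db/db animal 6 lies with the db/m mice in Col27a1 in both and above them in Serpine2 in both.

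Animal 6 of the db/db mice did not take 1 position across the members. Its distance from the db/m mean, as a share of the distance of its 5 fellow db/db mice, was 0.00749 in the RNA-seq reads of Col27a1, 0.633 in Serpinf2, 0.714 in Col14a1, 0.949 in the first Timp3 peak and 1.10 in Serpine2. In Col13a1 and Col8a1, on few RNA-seq reads, it was 0.213 and -0.0811. In IP reads this share was 0.0226 in Col27a1, -0.0375 in Col13a1, 0.682 in Serpinf2, 1.04 in Col5a1 and 1.13 in Serpine2.

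The basement membrane group had 10 peaks in 6 genes. In IP reads 2 of the 10 peaks, both in 1 region, were called higher in edgeR and in DESeq2, and none was called lower. Of all peaks, edgeR called 1.59% higher and 1.72% lower. In RNA-seq reads none of the group was called by either tool. An adjusted p under 0.05 with a fold below the threshold was found for 3 peaks in edgeR and 3 in DESeq2. Of all 9857 peaks, 1111 and 1332 had such an adjusted p at any fold. In edgeR 3 peaks of the group had an unadjusted p under 0.05, against 2413 of all peaks. Laminins are trimers that build the basement membrane sheet. Lamb2, the beta 2 chain that is part of the laminin of the mature glomerular basement membrane, passed the test below the fold threshold. Its RNA-seq levels at the peak on chromosome 9 from 108489294 to 108489551 were 70.8, 66.2, 62.2, 62.7, 61.6 and 40.6 CPM in db/db mice and 42.4, 32.1, 38.9, 31.9 and 33.9 CPM in db/m mice. The first 5 db/db animals lay close together above the db/m mice, and animal 6 lay between db/m values. In log2 terms the fold change came to 0.76 (SE 0.15, adjusted p = 0.00192), and 0.85 without animal 6. In IP reads it was 0.79 (SE 0.21, adjusted p = 0.0331), with an adjusted p of 0.05 or more in 7 of 17 alternative fits.

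Lamb1, the beta 1 chain of many basement membranes, did not pass at its deepest peak, a 61-base peak on chromosome 12 from 31326615 to 31326675. The log2 fold change there was 0.51 in IP reads (adjusted p = 0.232) and 0.25 in RNA-seq reads (adjusted p = 0.330), and at its other region it was 0.01 and 0.08. Hspg2, which encodes perlecan, had values of 0.34 in IP reads (adjusted p = 0.418) and -0.01 in RNA-seq reads. Lama4 and Nid2 had a mean of 0.545 and 1.09 RNA-seq reads per library.

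Integrins had 13 peaks in 6 genes and no call in IP or RNA-seq reads by edgeR or DESeq2. In edgeR, 2 and 1 of the 13 peaks had an unadjusted p under 0.05, against 2089 and 2413 of all 9857 peaks. In DESeq2, 2 integrin peaks had an adjusted p under 0.05 in IP reads with a fold below the threshold. Of all peaks, 985 had such an adjusted p at any fold. Itgb1, the beta chain shared by most matrix receptors, had the deepest peak (chromosome 8, 128720438 to 128722437). Its RNA-seq levels were 99.99, 135, 204, 135, 119 and 115 CPM in db/db mice and 118, 216, 129, 140.1 and 136 CPM in db/m mice, and the genotypes overlapped over most of their range. As a log2 fold change this was -0.03 (SE 0.18) in IP and -0.13 (SE 0.18) in RNA-seq reads.

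Itgb5, which pairs with the alpha V chain as a vitronectin receptor, had 6 peaks in 3 regions. In its longest region, a peak of 14328 bases on chromosome 16 from 33884969 to 33899296, all db/db mice were above all db/m mice in both libraries. The IP levels were 54.1 to 80.4 CPM in db/db and 36.2 to 52.7 CPM in db/m mice, and the RNA-seq levels 75.8 to 87.1 and 63.2 to 75.6 CPM. The log2 fold changes were small, 0.49 in IP reads (SE 0.17, adjusted p = 0.105) and 0.22 in RNA-seq reads (SE 0.11, adjusted p = 0.223). In the other Itgb5 regions the genotypes overlapped in both libraries. Over all 6 peaks the log2 fold change ran from 0.04 to 0.50 in IP and from -0.28 to 0.23 in RNA-seq reads. The peaks of Itga4, Itga8, Itgb3 and Itgb6 had at most 1 RNA-seq read per library on average.

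The elastic fibre group (Fbln2, Fbn1, Loxl2, Loxl3 and Ltbp3, 9 peaks) had no peak with a mean of 10 RNA-seq reads. No peak was called in IP or RNA-seq reads by edgeR or DESeq2. In edgeR 2 peaks in IP and 1 in RNA-seq reads had an unadjusted p under 0.05, against 2089 and 2413 of all 9857 peaks. The deepest was that of Loxl2, a collagen cross-linking enzyme, with 73.3 IP and 7.18 RNA-seq reads per library and log2 fold changes of 0.20 and 0.21 (SE 0.33 and 0.46).

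The matricellular genes with a peak were Sparc, Sparcl1 and Fn1, with 5 peaks, and none was called by edgeR or DESeq2. In edgeR 4 of the 5 in IP and 0 in RNA-seq reads had an unadjusted p under 0.05, against 2089 and 2413 of all 9857 peaks. In DESeq2, 2 of the 5 peaks had an adjusted p under 0.05 in IP reads but not the fold. Of all peaks, 985 had such an adjusted p at any fold. Sparc binds collagen and modulates cell adhesion. At its longer region (chromosome 11, 55405277 to 55409994) the IP levels were 67.4 to 111 CPM in db/db and 46.0 to 66.9 CPM in db/m mice, without overlap. The IP log2 fold change was 0.48 (SE 0.17, adjusted p = 0.110) and the RNA-seq value 0.25 (adjusted p = 0.387), where the genotypes overlapped. At the deepest Sparc peak, in the other region, the IP levels overlapped too, at 54.2 to 96.8 CPM in db/db and 32.9 to 63.6 CPM in db/m mice. Exact permutation tests at that peak gave p = 0.0346 for IP and p = 0.457 for RNA-seq reads. Over 17 alternative fits its adjusted p was 0.0903 or more in IP and 0.420 or more in RNA-seq reads. Sparcl1, a relative of Sparc, had 0.53 in IP reads (adjusted p = 0.175). The Fn1 peak held 0.636 RNA-seq reads per library, so fibronectin could not be assessed in it.

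The metalloproteinases had 8 peaks in Mmp14, Mmp15, Mmp24, Adam19, Adamts1, Adamts5 and Adamts15, and none was called by edgeR or DESeq2. In edgeR 1 peak in each library type had an unadjusted p under 0.05, against 2089 (IP) and 2413 (RNA-seq) of all 9857 peaks. Only the peak of Mmp24, a membrane-type metalloproteinase, had a mean of over 10 RNA-seq reads (92.8). Its log2 fold change was 0.39 in IP reads (adjusted p = 0.497) and 0.22 in RNA-seq reads (adjusted p = 0.503), and the gene BC029722 covers the same bases. Mmp14, a collagenase of the cell surface, had 18.7 IP and 1.73 RNA-seq reads per library and was not called.

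Timp3, an inhibitor of metalloproteinases that stays bound to the matrix, was the member read most deeply and was lower in db/db mice at each of its peaks. Its 6 peaks lie in 3 regions of chromosome 10, from 86347440 to 86349177 on the plus strand. At the peak from 86347440 to 86347589, the RNA-seq levels were 326, 384, 310.4, 374, 383 and 375 CPM in db/db mice and 686, 672, 865, 685 and 767 CPM in db/m mice. The highest db/db animal was far below the lowest db/m animal. The means were 359 ± 32.2 (SD, n = 6) and 735 ± 81.7 CPM (SD, n = 5), which is -1.04 on the log2 scale (SE 0.11, adjusted p = 3.86e-06). In IP reads the same peak had 115 to 234 CPM in db/db and 237 to 353 CPM in db/m mice, or -0.71 (SE 0.19, adjusted p = 0.0322).

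Over the 6 Timp3 peaks the log2 fold change was -1.04 to -0.75 in RNA-seq reads, with an adjusted p under 0.05 in all 6 and a fold past the threshold in the 2 overlapping peaks of the first region. In IP reads it was -0.88 to -0.60, with 5 of 6 under 0.05. At the peak with the most reads (86348997 to 86349177), db/m animal 2 stood below the other db/m mice, at 758 CPM against 1121 to 1309 CPM in RNA-seq reads. The IP value there (-0.63, adjusted p = 0.0455) had an adjusted p of 0.05 or more in 12 of 17 alternative fits, while the RNA-seq value (-0.75, adjusted p = 0.00479) kept it under 0.05 in all 17. All Timp3 peaks lie within Syn3, on the other strand, and the counts do not separate strands. Timp1 and Timp4, the other inhibitors with a peak, had 1.27 and 0.273 RNA-seq reads per library.

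Serpins trap serine proteases, and the 2 that were read well moved in opposite directions. Serpine2 encodes protease nexin-1, an inhibitor of thrombin and plasminogen activators. At its peak on chromosome 1 (79794701 to 79794879, minus strand), the IP levels were 30.3, 34.8, 53.0, 34.2, 30.6 and 39.5 CPM in db/db mice and 12.7, 12.6, 16.5, 16.2 and 10.2 CPM in db/m mice. All db/db mice were above all db/m mice, animal 6 included. Between the genotypes the log2 fold change came to 1.44 (SE 0.22, adjusted p = 0.000373). The RNA-seq levels were 33.4, 26.7, 49.97, 16.6, 38.9 and 35.2 CPM and 9.95, 10.4, 14.1, 10.8 and 17.7 CPM, where db/db animal 4 lay just below db/m animal 5, giving a value of 1.41 on the log2 scale (SE 0.24, adjusted p = 0.000586).

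Serpinf2 encodes alpha 2-antiplasmin, the main inhibitor of plasmin, which liver and kidney make. At its peak on chromosome 11 (75432206 to 75432325, minus strand), the RNA-seq levels were 10.5, 3.60, 4.85, 5.64, 3.79 and 17.9 CPM in db/db mice and 44.3, 32.1, 38.3, 45.0 and 34.9 CPM in db/m mice. Every db/db animal was below every db/m animal, with animals 1 and 6 nearest to them. On the log2 scale the difference was -2.33 (SE 0.31, adjusted p = 4.09e-05) and became -2.77 without animal 6. In IP reads, with 1.38 to 10.6 CPM in db/db and 21.96 to 34.8 CPM in db/m mice, it was -2.56 (SE 0.47, adjusted p = 0.00202). Serpine2 and Serpinf2 passed in each of the 17 and 16 alternative fits of both library types. Serpinb8 had 0.364 RNA-seq reads per library and was not called.

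How much of a transcript the antibody recovered, compared with other peaks, was read from IP over RNA-seq levels, as log2((IP CPM + 1)/(RNA-seq CPM + 1)) for each animal. Each level is scaled to the reads in peaks of its own library type. A value below 0 therefore places a peak low among the peaks and does not show depletion. Peaks had been called on this quantity, so it is given without a test. Of the member peaks, 38 held 50 or more RNA-seq reads per library on average. The 14 collagen peaks among them, all of Col18a1 and Col27a1, had a median of 1.20, where all 5247 peaks at that depth had a median of -0.08 and a middle 50% from -0.50 to 0.38. Over the genes named by their deepest peak, Col27a1 (1.73 ± 0.17, SD, n = 11) and Col18a1 (0.94 ± 0.18) stood high. Sparc (-1.08 ± 0.22), Lamb1 (-0.89 ± 0.29) and Itgb1 (-0.79 ± 0.22) were lowest. The values of 1 transcript differed by region. In Col27a1 they ran from 0.38 at the most downstream region to 2.33 at the peak from 63319059 to 63323939, and in Sparc from -1.08 at one region to 0.27 at the other. The Timp3 peaks had values of -1.17 to 0.11.

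**Figure D4:**
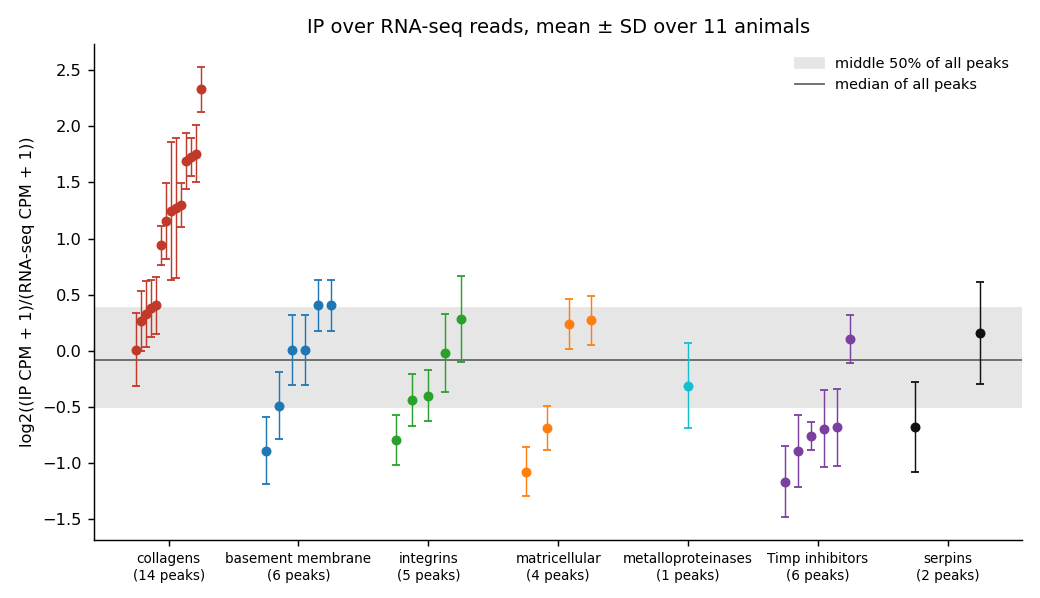
Each dot is a member peak with 50 or more RNA-seq reads per library on average, grouped by role on the x axis, and the y axis is log2 of the IP level over the RNA-seq level, as mean ± SD over 11 animals. The grey band holds the middle 50% of all peaks at that depth. Of the 14 collagen peaks, most stand above the band, and most of the Timp3 peaks stand below it.

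No member peak passed the test of the IP level relative to the RNA-seq level of the same animal. In edgeR's interaction fit 0 of 111 were called, against 0.0203% of all peaks, and DESeq2 and limma voom also gave 0. An unadjusted p under 0.05 was found for 11 member peaks (9.91%, against 6.76% of all peaks). In Col27a1 the relative log2 fold change was 0.07 (SE 0.13) at the deepest peak, in Serpine2 0.07 (SE 0.24) and in Serpinf2 -0.31 (SE 0.29). The first Timp3 region had 0.30 (SE 0.09, unadjusted p = 0.000656, adjusted p = 0.249). There IP over RNA-seq was -1.04 ± 0.33 (SD, n = 6) in db/db and -1.33 ± 0.23 (SD, n = 5) in db/m mice.

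Further matrix genes outside the members were read from a list of type IV collagens, glycoproteins, proteoglycans, collagen-modifying enzymes and proteases, of which 25 genes with 85 peaks were in the table. In IP reads 1 peak was called higher (1.18%, against 1.59% of all peaks) and 7 lower (8.24%, against 1.72%), and in RNA-seq reads 1 higher (1.18%, against 1.98%) and 6 lower (7.06%, against 1.97%), with median log2 fold changes of 0.12 and 0.04. Podn, a small leucine-rich proteoglycan, fell by 1.35 on the log2 scale in RNA-seq reads (SE 0.16, adjusted p = 1.42e-05), from 134 ± 12.5 CPM (SD, n = 5) in db/m to 52.5 ± 12.9 (SD, n = 6) in db/db mice. Gpc4, a glypican, fell by 1.07 (SE 0.18, adjusted p = 0.000465). Col4a3 and Col4a4, chains of the glomerular basement membrane, were also lower. P4hb, a subunit of prolyl 4-hydroxylase, fell by 0.54 in its deepest peak (adjusted p = 0.00104), and Ctsl, a lysosomal protease, was higher by 0.45 in its deepest peak (adjusted p = 0.0225). The genes called higher were Emilin1, a glycoprotein of elastic fibres, and Eln, which encodes elastin. Emilin1 was higher by 1.13 on the log2 scale in IP reads (SE 0.32, adjusted p = 0.0397) and had 0.80 in RNA-seq reads (adjusted p = 0.0756). Eln was called in RNA-seq reads on a mean of 0.909 reads per library, with 0 in every db/m library (adjusted p = 0.0451). The genes that couple integrins to the cytoskeleton (10 genes with 31 peaks) gave 0 calls in edgeR and in DESeq2. In edgeR 6 of the 31 peaks in each library type had an unadjusted p under 0.05, against 2089 (IP) and 2413 (RNA-seq) of all 9857 peaks. In DESeq2 1 peak had an adjusted p under 0.05 in RNA-seq reads, against 1332 of all peaks.

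In whole kidney, fewer cells of a type and less RNA per cell cannot be told apart, so cell type markers are given beside these values. The summed RNA-seq level of the fibroblast, pericyte and smooth muscle markers with a peak (Myh11, Pdgfra and Pdgfrb, 3 of 7) was 61.3 to 87.4 CPM in db/db and 39.9 to 79.4 CPM in db/m mice. That of the adipocyte markers (Adipoq, Lpl and Plin1, 3 of 7) was 3.998 to 6.67 CPM in db/db and 13.0 to 70.2 CPM in db/m mice, without overlap, and 1 of the 3 was called lower. Podocyte markers (4 of 5) summed to 58.8 to 122 and 62.7 to 77.9 CPM, with db/db animal 6 lowest, and endothelial markers (3 of 6) to 26.9 to 52.5 and 42.2 to 53.0 CPM. The proximal tubule markers (5 of 9) summed to 3768 to 4326 CPM in db/db and 3225 to 3525 CPM in db/m mice, so defining markers of kidney tubules were present. Of these 5 genes, taken by their deepest peak, 1 was higher and 3 were lower at an adjusted p under 0.05, and 1 of the 3 passed the fold threshold. Markers of the thick limb, distal tubule and collecting duct (5 of 7) summed to 1114 to 1690 CPM in db/db, with animal 6 highest, and 1287 to 1484 CPM in db/m mice, and 1 of them was called higher. Of the injured tubule list only Krt8 had a peak, with 55.2 to 80.9 and 39.9 to 56.8 CPM, and of the leukocyte list only C1qa. The part of these shifts in the changes of Col27a1, Col13a1, Col14a1, Serpine2, Serpinf2 and Timp3 was not tested.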

How the data were processed

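Each of 11 animals (6 db/db, 5 db/m) gave 1 ac4C IP and 1 RNA-seq library from kidney, assigned from the sample titles. The members and gene lists were chosen with earlier results of these data known.

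The authors prepared mRNA, fragmented it, enriched it with an ac4C antibody, sequenced it and deposited 1 table of peaks. Its counts are whole reads per peak and library, made by the authors without normalization. The build given in the submitters' processing notes is GRCm38. The aligner, peak caller and counting tool are not given in the sources used here. The deposited fold enrichment of IP over RNA-seq is a linear ratio, and the deposited FDR (an adjusted p-value) of each peak comes from the authors' peak calling. Neither was tested. Columns with the authors' own comparison of the genotypes (log2 change, p and FDR) were not used. Strand was ignored in counting: among 52 opposite-strand peak pairs sharing 90% of their length, 46 had totals within 10%. The start in the table counts from 0, since adding 1 matched a gene start in 103 peaks and the start as given in 8, so 1 was added.

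Tests ran in edgeR 4.0.16 under R 4.3.3 (TMM, glmQLFit and glmQLFTest) over all 9857 peaks without a filter. IP and RNA-seq libraries were fitted separately by genotype, and IP relative to RNA-seq reads over all 22 libraries with a term for the animal. Adjusted p-values are Benjamini-Hochberg values over all peaks. The fits were tested on simulated data with known changes. Named genes were those with a called peak, up to 8 further genes with an adjusted p under 0.05 (Lamb2 alone met this), the deepest gene of each role and the 3 highest and 3 lowest in IP over RNA-seq, each by its peak with the most reads. This gave 16 genes and 32 exact permutation tests (Python 3.11.15, scipy 1.17.1), of which 3 reached the smallest p. Other genes in the text account for the remaining members, except 1 gene that is not reported here and that stays in the counts and medians. Itgb5 and the second Sparc region were described because their genotypes did not overlap, after their values were seen. The alternatives were DESeq2 1.42.0, limma 3.58.1 (voom), no TMM, filterByExpr, the db/db list, peaks of at most 1000 bases, no fold threshold, each animal left out and a block of the animal numbers.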

Additional observations from a re-analysis of the deposited data

Results flagged for a closer look

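Of 64 groups of animals tested (both genotypes and libraries of the named genes), 8 held an animal set far apart from its group, where chance would give 3.2 (1 in 20). At the representative peak of Col14a1, db/m animal 2 had the highest RNA-seq level of its genotype, at 10.4 CPM. For Col18a1, the IP level of db/db animal 1 was the lowest, at 255 CPM. For Col8a1, db/m animal 2 had 3.39 CPM in IP reads, where the remaining db/m mice had under 1 CPM. In the RNA-seq reads of Itgb1, db/db animal 3 (204 CPM) and db/m animal 2 (216 CPM) were each the highest of their genotype. Lamb2 stood lowest in db/db animal 6, at 40.6 CPM in RNA-seq reads. Mmp24 was highest in db/db animal 5, at 48.4 CPM in RNA-seq reads. Timp3 was lowest in db/db animal 3, at 262 CPM in IP reads.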

How the results depend on the processing

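The counts of called members depended on how overlapping and long peaks were taken. With only the db/db list, 6 peaks in 2 genes were called in IP and 7 peaks in 3 genes in RNA-seq reads, and the median relative log2 fold change was 0.22. With peaks of at most 1000 bases, 4 peaks in 3 genes were called in IP and 8 peaks in RNA-seq reads. These fits hold fewer peaks by construction. Leaving out 1 animal gave 11 to 17 peaks in 3 to 6 genes in IP and 15 to 21 peaks in 6 to 11 genes in RNA-seq reads. The 3 genes came without db/db animal 3, db/db animal 5 or db/m animal 4, and the 11 without db/db animal 6. The median log2 fold change then ran from 0.0864 (without db/db animal 3) to 0.40 in IP, from 0.22 to 0.32 in RNA-seq and from -0.0143 to 0.10 (without db/m animal 3) in relative reads. DESeq2 called 15 member peaks in IP and 19 in RNA-seq reads, against 386 and 371 of all 9857 peaks. Without the fold threshold edgeR gave 21 and 24 member peaks, against 636 and 1111 of all peaks. The fits without TMM called 15 and 17 members, and those with filterByExpr 14 and 15. Apart from DESeq2 and the dropped fold threshold, the called share of all peaks is not given here. In relative reads no alternative called a member (0), and DESeq2 and limma voom called 0 of all 9857 peaks.

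Signs turned only for values that passed no test, and the cause was not tested. The IP value of Itgb1 was 0.0696 without TMM and -0.11 to 0.0714 with 1 animal left out. With 1 animal left out, RNA-seq values ran from -1.22 to 0.68 in Col5a1, from -0.28 to 0.0483 in Itgb1 and from -0.10 to 0.42 in Loxl2. Relative values ran from -0.71 to 0.0885 in Col14a1, from -0.0143 to 0.12 in Col27a1, from -2.14 to 1.22 in Col8a1 and from -0.17 to 0.18 in Serpine2, and that of Col8a1 was 0.0412 in DESeq2 and 0.48 in limma voom.

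The main fits did not pair the genotypes by animal number. Deviations of same-numbered animals correlated at -0.24 to 0.20 in IP and -0.40 to 0.51 in RNA-seq reads. For db/db animal 2 in IP and db/db animals 1 and 2 in RNA-seq reads, the db/m animal with the highest correlation had the same number. Whether the numbers mark a shared step of handling was not tested. The replicate block used only animals 1 to 5 of each genotype, so db/db animal 6 was left out of that fit as well. With this block and without that animal, 17 peaks in 7 genes were called in IP and 21 peaks in 10 genes in RNA-seq reads. The called share of all peaks in that fit is not given here. Without the animal term 0 members were called in relative reads. A mean under 10 RNA-seq reads per library was found in 55 member peaks, of which 3 (5.45%) were called in IP or RNA-seq reads. Of all 9857 peaks, 3133 had such a mean, and the called share among them is not given here.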
